A study of Mus musculus with 4 samples.

Results

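The genes that carry a cell from the G1 phase of the cell cycle into DNA synthesis were followed in mouse hearts of Nat10 conditional knockout and control animals; Nat10 is the acetyltransferase that places N4-acetylcytidine on RNA. They are the D-type cyclins Ccnd1, Ccnd2 and Ccnd3, the E-type cyclins Ccne1 and Ccne2, the kinases Cdk2, Cdk4 and Cdk6, the transcription factor gene E2f1 and the retinoblastoma gene Rb1. They were chosen by symbol, and each of the 10 symbols stood on 1 of the 55382 Ensembl genes in the deposited tables. The series holds 2 KO libraries and 2 WT libraries of ribosome profiling, which sequences the mRNA fragments covered by ribosomes. The KO libraries come from NAT10-CKO mice (genotype KO), and the WT libraries from NAT10-FF mice (genotype WT, library names FF). All mice were killed on day 15 after birth and all hearts were treated with cycloheximide before lysis to hold ribosomes in place. The labels name neither the Cre driver nor the exons removed, and do not say whether libraries come from separate animals, so each p-value reflects the spread between libraries alone, which may be technical.

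D-type cyclins are made in response to growth signals and bind Cdk4 or Cdk6. The resulting kinases begin to phosphorylate the Rb protein, which otherwise holds E2F factors inactive; freed E2F factors then switch on the E-type cyclins and the genes of DNA synthesis, and cyclin E with Cdk2 completes the step. In the mouse heart, cardiomyocytes leave the cell cycle in the first weeks after birth, while fibroblasts, endothelial cells and macrophages can still divide.

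Each gene has a footprint level in FPKM (fragments adjusted for gene length and library size) and a translation efficiency (TE), the ratio of the footprint level to an RNA level. The footprint level divided by TE is a number of no more than 6 significant digits for all 59296 values tried (tolerance 1e-10), and is used here as the RNA level, under the name implied RNA level. How that RNA was prepared is not stated in the labels. FPKM is scaled by a gene length, and levels are set beside each other between genes on that basis. The counted region is not stated, so orders of genes, shares and ratios between genes rest on a length that is not known. Depth in reads is unknown. Mitochondrial tRNA genes, which are not mRNA, held 57.0% and 48.9% of the summed footprint FPKM in KO replicates 1 and 2. They held 56.0% and 55.3% in WT replicates 1 and 2. Their part in the differences between libraries was not tested.

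Nat10 had 40.01 and 52.1 FPKM of footprints in KO hearts, against 77.3 and 73.9 FPKM in WT hearts, without overlap and without passing limma's test (adjusted p = 0.295). The label gives the cell type as cardiomyocytes, but whole heart was lysed. The 8 cardiomyocyte markers, among them Myh6 and Tnnt2, summed to 162014 and 168737 FPKM of footprints in KO hearts and to 246474 and 292936 FPKM in WT hearts. The 8 fibroblast markers summed to 28122 and 38309 FPKM in KO hearts and to 11596 and 8889.7 FPKM in WT hearts, and no marker of either list was listed at 0. Macrophage markers summed to 659 and 1497 FPKM in KO hearts and to 413 and 617 FPKM in WT hearts, and endothelial markers to 1881 and 2738 FPKM in KO hearts and to 1637 and 1425 FPKM in WT hearts. The 5 markers of cycling cells (Mki67, Top2a, Ccnb1, Cdk1 and Birc5) summed to 459.7 and 429.8 FPKM in KO hearts and to 381 and 99.9 FPKM in WT hearts, so WT replicate 2 stood apart from the other libraries. Smooth muscle and pericyte markers summed to 3411 and 2905 FPKM in KO hearts and to 4018 and 4417 FPKM in WT hearts. Most of that sum was Acta2, with 2721 and 1816 FPKM in KO hearts, against 3365 and 3959 FPKM in WT hearts. The median log2 difference (KO minus WT) of this list was 0.46 in footprints, opposite to the sum, and -0.13 in implied RNA. In implied RNA the median log2 difference (KO minus WT) was -0.59 for cardiomyocyte, 0.66 for fibroblast, 0.75 for macrophage and -0.0049 for endothelial markers. In footprints these medians were -0.59, 1.42, 0.81 and 0.57. In such footprint sums more cells of a type, more RNA per cell and more translation of that RNA cannot be told apart.

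All 10 genes had at least 1 FPKM of footprints in at least 2 libraries and were among the 15031 genes tested for footprints and the 12529 tested for TE and implied RNA. None passed in any measure (limma, Benjamini-Hochberg adjusted p under 0.05 over all genes tested). Among all tested genes, 0.379% passed for footprints, 5.73% for implied RNA and 0% for TE. At an unadjusted p under 0.05 the members were 3 of 10 for footprints, 6 of 10 for implied RNA and 1 of 10 for TE, where all tested genes gave 17.3%, 28.3% and 6.06%. The 3 in footprints (the D-type cyclins) were all higher in KO, beside 13.5% of genes higher and 3.8% lower. The 6 in implied RNA (Ccnd1, Ccnd2, Ccne1, Ccne2, Cdk4 and E2f1) were all higher, beside 21.1% higher and 7.17% lower, and the 1 in TE (Ccne1) was lower, beside 1.38% lower and 4.68% higher. At the adjusted threshold 4.2% of all tested genes rose in implied RNA. Without KO replicate 1 the implied RNA differences of Ccnd1 and Ccnd2 were 0.92 and 1.81 in log2. Without KO replicate 2 the differences were 0.69 for Ccnd1, 1.80 for Ccne1, 1.11 for Cdk4, 1.09 for E2f1 and -1.26 for Cdk6. These genes passed there, but such a fit rests on 1 KO library. Far more of all tested genes also passed without KO replicate 2, so calls in that setting do not single out the members. The difference was above 0 for 8 of 10 genes in footprints (71.1% of all), 9 of 10 in implied RNA (64.6%) and 4 of 10 in TE (59.5%). After median-ratio scaling, which brings the library medians together, it was above 0 for 5 (52%), 8 (50.3%) and 3 (47.2%). At an unadjusted p under 0.05 by limma, the members were then 1 for footprints, 6 for implied RNA and 2 for TE. Without the mean-variance trend they were 1, 6 and 1. The median log2 difference (KO minus WT) of the 10 genes was 0.47 for footprints, 0.87 for implied RNA and -0.04 for TE, beside 0.36, 0.22 and 0.15 over all tested genes. The scaling lowered the footprint median of all genes to 0.03 and the implied RNA median to 0.0043. The members' medians were then 0.10 and 0.66.

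**Figure D1:**
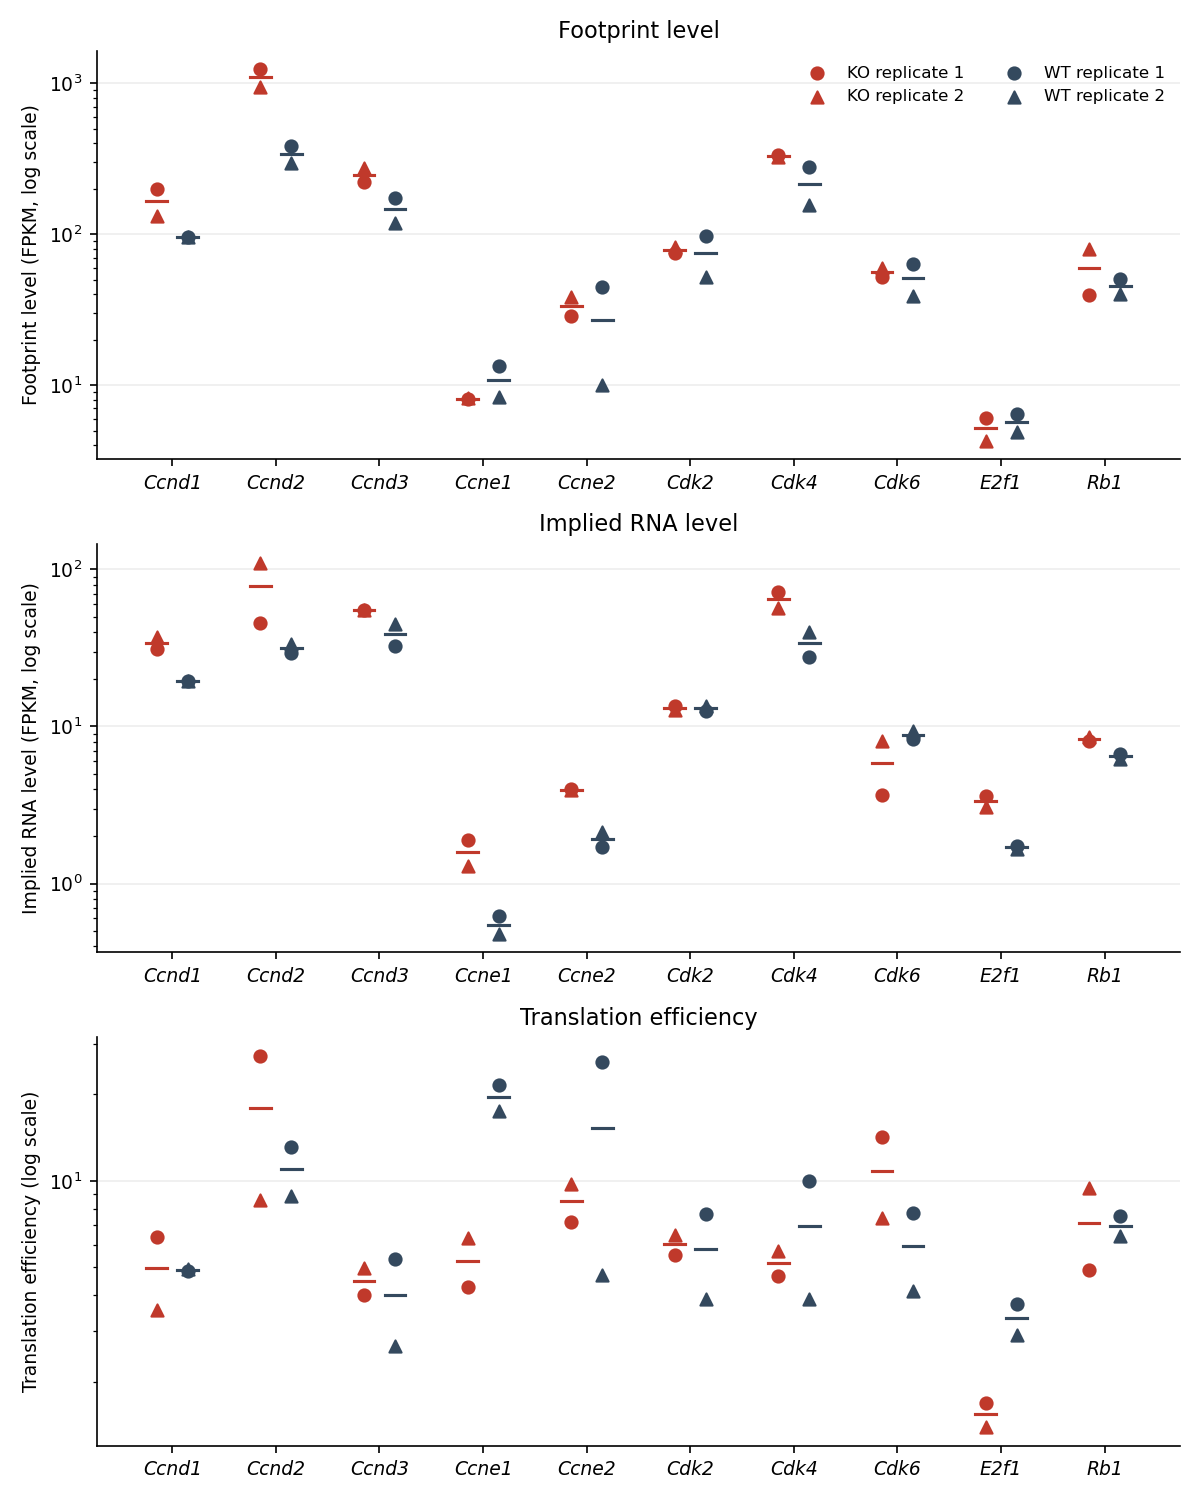
Footprint level, implied RNA level (both in FPKM) and translation efficiency of the 10 genes in every library, on log scales. Red marks are KO, dark marks WT, circles replicate 1, triangles replicate 2, and bars the mean of 2 libraries. Ccnd2 has the highest footprint level in both groups, and the KO marks of Ccne1 and E2f1 lie above WT in implied RNA and below WT in translation efficiency.

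The D-type cyclins read higher in KO hearts, led by Ccnd2. Ccnd2 (ENSMUSG00000000184, chromosome 6, 127125162 to 127152188 in GRCm38.p6) had 1240.3 and 949.7 FPKM of footprints in KO hearts, against 385 and 298 FPKM in WT hearts. Both KO libraries lay well above both WT libraries. The means were 1095 ± 206 FPKM in KO and 341 ± 61.8 FPKM in WT (SD, n = 2 each), a 3.20-fold higher level in KO on the log2(FPKM + 1) scale (log2 difference 1.68, SE 0.25). It did not pass over all genes (limma adjusted p = 0.088) and passed when small RNA genes and unnamed gene models were left out of the test (adjusted p = 0.018). It did not pass after median-ratio scaling (limma adjusted p = 0.122), with a pseudocount of 0.1 (0.136), without the mean-variance trend (0.222) or with no filter (0.258). With any 1 library left out no tested gene passed in footprints, so that setting cannot decide for Ccnd2. The difference was 1.30 after median-ratio scaling and 1.48 to 1.87 with any 1 library left out. Only 4.99% of tested genes had a higher difference.

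The RNA of Ccnd2 was also higher. In implied RNA it had 45.6 and 110.5 FPKM in KO hearts, against 29.5 and 33.7 FPKM in WT hearts, 2.25-fold higher (log2 difference 1.17, SE 0.40, limma adjusted p = 0.123). The groups did not overlap, but the KO libraries differed from each other more than the lower one differed from WT. They also exchanged rank between measures: KO replicate 1 had the higher footprint level and the lower RNA level. The TE of Ccnd2 was therefore 27.2 and 8.59 in KO hearts, against 13.1 and 8.83 in WT hearts, with overlap (log2 difference 0.51, SE 0.64, limma adjusted p = 0.931).

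Ccnd1 and Ccnd3 followed with smaller differences. Ccnd1 (chromosome 7, 144929931 to 144939831), the D-type cyclin best known as a target of mitogen signalling, had 199.4 and 131 FPKM of footprints in KO hearts, against 95.3 and 95.8 FPKM in WT hearts (log2 difference 0.75, SE 0.29, limma adjusted p = 0.279). In implied RNA it had 31.4 and 37.0 FPKM in KO hearts, against 19.6 and 19.4 FPKM in WT hearts (log2 difference 0.80, SE 0.21, limma adjusted p = 0.068). The KO values lay above the WT values in both measures by a similar fold, and the TE was 6.36 and 3.55 in KO hearts around 4.87 and 4.93 in WT hearts. Ccnd3 (chromosome 17, 47505051 to 47599689), the D-type cyclin often found in cells that have stopped dividing, had 221 and 276 FPKM of footprints in KO hearts, against 173 and 119.6 FPKM in WT hearts (log2 difference 0.78, SE 0.29, limma adjusted p = 0.261). For implied RNA it had 55.3 and 55.5 FPKM in KO hearts, against 32.5 and 45.05 FPKM in WT hearts, again without overlap (log2 difference 0.54, limma adjusted p = 0.186). After median-ratio scaling the footprint differences of Ccnd1 and Ccnd3 were 0.38 and 0.41. Before scaling, 27.5% of tested genes had a higher footprint difference than Ccnd1, and 26.4% a higher one than Ccnd3.

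The make-up of the D-type pool differed between groups at the footprint level. Ccnd2 held 74.7% and 70.0% of the summed footprint FPKM of the D-type cyclins in KO hearts, against 59.0% and 58.0% in WT hearts, or 72.3 ± 3.3% and 58.5 ± 0.7% (SD, n = 2 each). Ccnd1 held 12.0% and 9.67% in KO hearts against 14.6% and 18.7% in WT hearts, and Ccnd3 13.3% and 20.3% against 26.5% and 23.3%. Such a share does not move with the scaling of a library, and the groups did not overlap for any of the D-type cyclins. With 2 libraries against 2, an exact permutation test cannot go below p = 0.333, so no test was made. In implied RNA the Ccnd2 share was 34.5% and 54.4% in KO hearts, against 36.2% and 34.3% in WT hearts, and the groups overlapped. The summed footprint level of all D-type cyclins was 1661 and 1357 FPKM in KO hearts, against 653 and 513 FPKM in WT hearts.

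The fibroblast and cardiomyocyte markers differed in the same libraries, with the sums given above. The part of other cell types in the D-type cyclin levels was not tested. Over the 4 libraries, Plpp2 (a lipid phosphatase), Tceal9 (a transcription elongation factor-like gene) and Kng2 (a kininogen) had the footprint pattern closest to that of Ccnd2. Their root mean square differences from it were 0.043, 0.061 and 0.062 in log2(FPKM + 1) centred per gene. Of 12963 named genes 77 lay within 0.2. The match rests on 4 libraries, and how often other genes have matches as close was not tested. Plpp2 was low, at 7.34 and 5.94 FPKM in KO hearts and 1.73 and 1.10 FPKM in WT hearts.

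For the E-type cyclins, both KO libraries read above both WT libraries in implied RNA, without passing the test, and neither passed in footprints. Ccne1 (ENSMUSG00000002068, chromosome 7, 38097984 to 38107490) had an implied RNA level of 1.90 and 1.30 FPKM in KO hearts, against 0.62 and 0.48 FPKM in WT hearts. This was 2.89-fold higher (log2 difference 1.53, SE 0.42, limma adjusted p = 0.079), and both KO values lay above both WT values. Footprints of Ccne1 read 8.08 and 8.19 FPKM in KO hearts, against 13.3 and 8.37 FPKM in WT hearts (log2 difference -0.34, SE 0.49, limma adjusted p = 0.747). Both KO values lay below both WT values, narrowly in the case of WT replicate 2.

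The TE of Ccne1 had the largest difference among the 10 genes. It was 4.26 and 6.30 in KO hearts, against 21.6 and 17.5 in WT hearts, 3.75-fold lower (log2 difference -1.91, SE 0.45). The test over all genes was not passed (limma adjusted p = 0.676; unadjusted p = 0.0043), and 0.94% of tested genes had a lower difference. With any 1 library left out it was -2.19 to -1.62. The RNA level below the ratio was low, at the 4.60 percentile of 11902 named genes in WT hearts, so the size is uncertain: with a pseudocount of 1 the RNA difference was 0.74 in place of 1.53. In WT hearts the mean TE of Ccne1 was at the 97.2 percentile of those genes and in KO hearts at the 57.3 percentile.

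Ccne2 (chromosome 4, 11190433 to 11204779), the second E-type cyclin, had an implied RNA level of 3.99 and 3.91 FPKM in KO hearts, against 1.72 and 2.14 FPKM in WT hearts (log2 difference 1.04, SE 0.29, limma adjusted p = 0.079). The KO values were close together and above both WT values. Footprints read 28.7 and 38.2 FPKM in KO hearts, against 44.4 and 10.02 FPKM in WT hearts (log2 difference 0.61, SE 0.70, limma adjusted p = 0.677). The WT libraries enclosed the KO libraries, and the difference was -0.41 without WT replicate 2, so its direction rests on that library. The TE of Ccne2 was 7.19 and 9.75 in KO hearts, against 25.8 and 4.69 in WT hearts. Ccne2 held 78.0% and 82.3% of the E-type footprints in KO hearts, against 76.9% and 54.5% in WT hearts.

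Among the kinases, Cdk4 read higher in KO hearts while Cdk2 and Cdk6 did not. Cdk4 (ENSMUSG00000006728, chromosome 10, 127063535 to 127067288), a partner of the D-type cyclins, had an implied RNA level of 71.8 and 57.1 FPKM in KO hearts, against 27.7 and 40.01 FPKM in WT hearts. This was 1.92-fold higher (log2 difference 0.94, SE 0.26, limma adjusted p = 0.077), without overlap. Footprints of Cdk4 read 334 and 325 FPKM in KO hearts, against 277 and 155 FPKM in WT hearts (log2 difference 0.67, SE 0.32, limma adjusted p = 0.345). The KO footprint values were above both WT values, and WT replicate 2 was the low one. The footprint difference was 0.29 after median-ratio scaling (limma adjusted p = 0.685) and 0.25 without WT replicate 2. Before scaling, 31.8% of tested genes had a higher footprint difference than Cdk4. In implied RNA the difference was 0.73 after the scaling (limma adjusted p = 0.101), and before it 13.6% of tested genes had a higher one. The TE of Cdk4 was 4.66 and 5.69 in KO hearts, between 10.02 and 3.88 in WT hearts.

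Cdk2 (chromosome 10, 128697938 to 128705051), the partner of the E-type cyclins, had an implied RNA level of 13.6 and 12.7 FPKM in KO hearts, against 12.6 and 13.5 FPKM in WT hearts. The means, 13.2 ± 0.6 and 13.1 ± 0.7 FPKM (SD, n = 2 each), differed by less than the spread between libraries. In footprints it had 75.2 and 82.7 FPKM in KO hearts, inside the WT range of 96.8 and 52.5 FPKM (log2 difference 0.14, SE 0.37, limma adjusted p = 0.867, and -0.22 after median-ratio scaling). Its TE was 5.53 and 6.50 in KO hearts, again between the WT values of 7.68 and 3.87.

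Cdk6 (chromosome 5, 3341004 to 3531008), the other partner of the D-type cyclins, was the member with a lower implied RNA level. It read 3.68 and 8.07 FPKM in KO hearts, against 8.29 and 9.38 FPKM in WT hearts (log2 difference -0.69, SE 0.39, limma adjusted p = 0.278). KO replicate 2 lay just under the WT libraries and KO replicate 1 far under them. Without KO replicate 1 the difference was -0.13, and without KO replicate 2 it was -1.26. Cdk6 footprints read 52.0 and 59.8 FPKM in KO hearts, inside the WT range of 63.9 and 38.8 FPKM, and its TE was 14.1 and 7.41 in KO hearts, against 7.72 and 4.13 in WT hearts. The footprint difference was 0.16 (SE 0.36, limma adjusted p = 0.844) and -0.21 after median-ratio scaling.

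Within the pool of these kinases the shares separated by group in both measures. Cdk4 held 72.4% and 69.5% of the footprints in KO hearts, against 63.3% and 63.0% in WT hearts, and 80.6% and 73.3% of the implied RNA in KO hearts, against 57.0% and 63.6% in WT hearts. Cdk6 held 11.3% and 12.8% of the footprints in KO hearts, against 14.6% and 15.7% in WT hearts, and 4.13% and 10.4% of the implied RNA in KO hearts, against 17.1% and 14.9% in WT hearts. Cdk2 held 16.3% and 17.7% of the footprints in KO hearts and 22.1% and 21.3% in WT hearts.

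**Figure D2:**
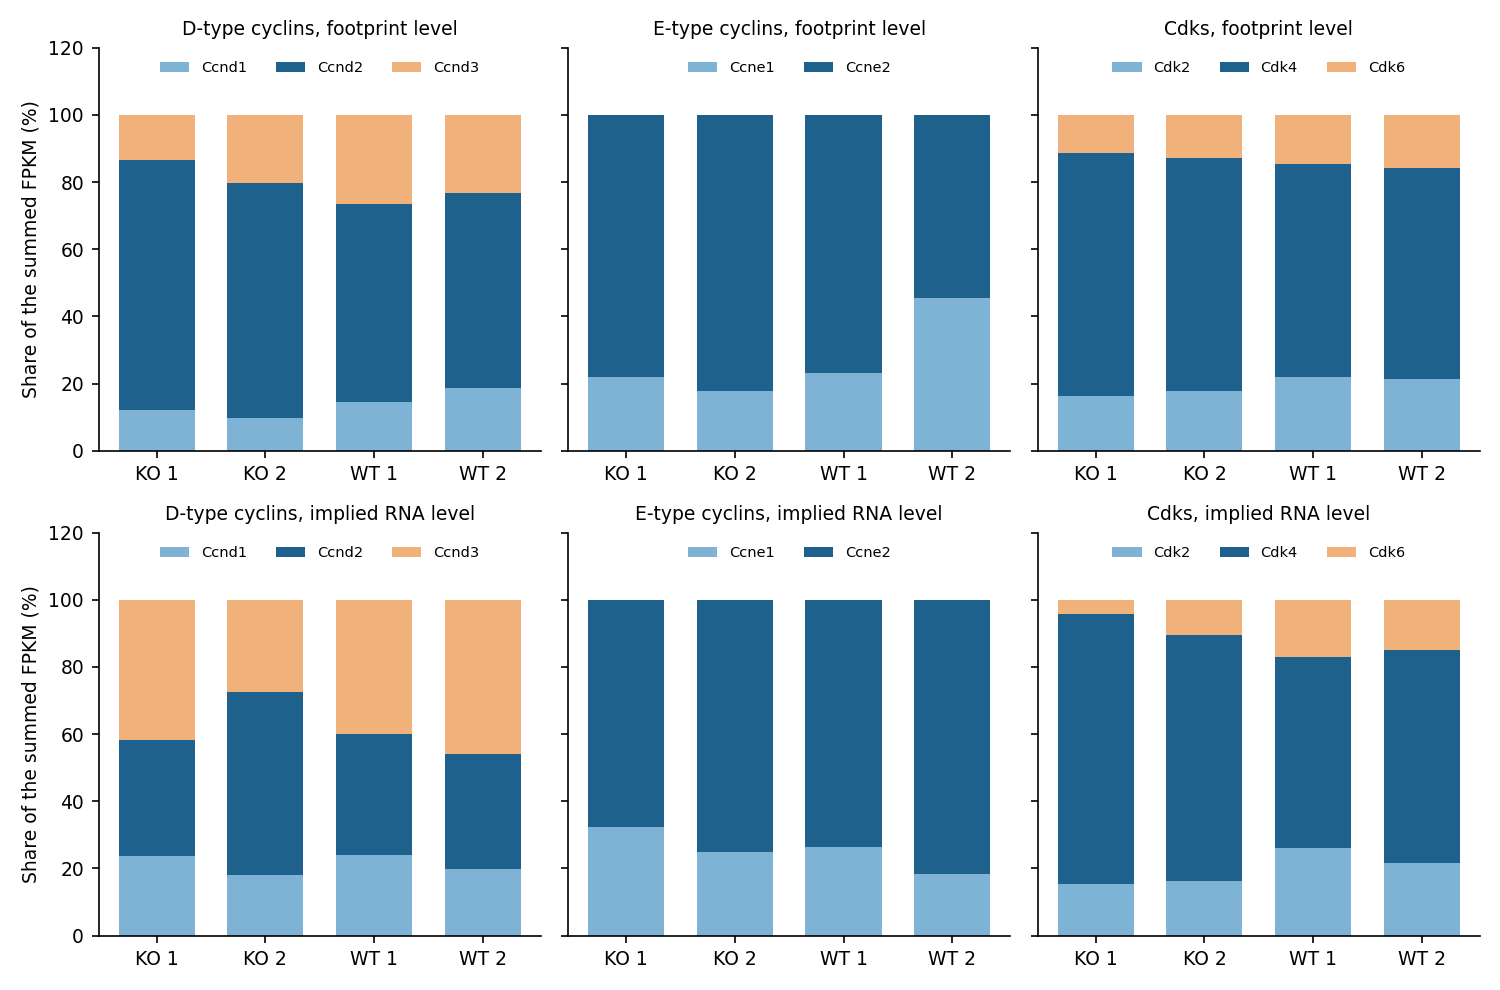
Share of each gene in the summed FPKM of the D-type cyclins, the E-type cyclins and the kinases, in percent, for footprints (top) and implied RNA (bottom); each bar is 1 library, KO left of WT. Ccnd2 takes 70.0% or more of the D-type footprints in KO and 59.0% or less in WT, and Cdk4 takes a greater share in KO in both measures.

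The DNA before Cdk4 and Cdk2, both on chromosome 10, is shown because it holds the motifs found before these kinases, whose implied RNA values are given above; the difference between the kinases was not tested. The sequences are the 250 bases before the RefSeq start in GRCm38.p6, written on the gene's strand. Capitals mark E2F motifs (TTTCCCGC, TTTCGCGC, TTTGCCGC or TTTGGCGC on either strand) and E-boxes (CACGTG, its own reverse complement), the sequence that Myc binds. These motifs share no bases here.
Cdk4, chr10:127063285-127063534, plus strand: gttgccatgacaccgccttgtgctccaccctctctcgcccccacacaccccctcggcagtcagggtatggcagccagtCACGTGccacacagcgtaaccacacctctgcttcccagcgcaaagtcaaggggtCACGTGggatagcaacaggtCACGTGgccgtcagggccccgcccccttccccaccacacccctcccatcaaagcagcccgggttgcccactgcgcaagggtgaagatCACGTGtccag
Cdk2, chr10:128705052-128705301, minus strand: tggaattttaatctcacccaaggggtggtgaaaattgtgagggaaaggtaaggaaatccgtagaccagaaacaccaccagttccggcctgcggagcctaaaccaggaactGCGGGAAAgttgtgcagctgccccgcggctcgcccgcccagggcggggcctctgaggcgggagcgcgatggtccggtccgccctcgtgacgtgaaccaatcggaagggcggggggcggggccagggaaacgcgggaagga

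The Cdk4 window held 4 E-boxes, which begin 172, 118, 98 and 11 bases before the start, and no E2F motif. The Cdk2 window held 1 E2F motif, which begins 140 bases before the start, and no E-box. RefSeq windows were matched for 6 of the 10 genes (Ccnd3, Ccne1, Cdk2, Cdk4, Cdk6 and E2f1): an E-box was found for 2 of them and an E2F motif for 1, beside 6.86% and 2.16% of the 27025 genes with a window. The windows of Cdk6 and E2f1, and 1 of the 2 windows of Ccnd3, stand before a RefSeq start that lies inside the annotated span of the gene, so they are not the DNA before its outer end; the other E-box was that of Cdk6. The GC box GGGCGG, on either strand and not capitalised, was found for 5 of 6, beside 35.4%. The E-box was searched for after the Cdk4 sequence had been read. Myc itself, a factor that drives growth, had 60.6 and 64.5 FPKM of footprints in KO hearts, against 11.7 and 5.42 FPKM in WT hearts (log2 difference 2.81, SE 0.46, limma adjusted p = 0.107), and was chosen for mention after its values were seen. It did not pass in implied RNA either, and a link between Myc and Cdk4 was not tested.

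E2f1 and Rb1 stand on opposite sides of the G1 switch. E2f1 (ENSMUSG00000027490, chromosome 2, 154559400 to 154569892) had an implied RNA level of 3.61 and 3.08 FPKM in KO hearts, against 1.73 and 1.66 FPKM in WT hearts, 1.97-fold higher (log2 difference 0.97, SE 0.29, limma adjusted p = 0.094). The KO libraries were both clearly above WT. E2f1 footprints read 6.09 and 4.29 FPKM in KO hearts, against 6.47 and 4.86 FPKM in WT hearts, with overlap (log2 difference -0.11, SE 0.52, limma adjusted p = 0.928). The direction of that difference turned to 0.06 without WT replicate 1 and to 0.10 without KO replicate 2. The TE of E2f1 was 1.69 and 1.39 in KO hearts, against 3.74 and 2.92 in WT hearts, 2.16-fold lower (log2 difference -1.11, SE 0.51, limma adjusted p = 0.826). Ccne1 and E2f1 were the members with TE in both KO libraries under both WT values, 2 of 10 beside 12% of all tested genes. No member's TE lay above WT in both KO libraries, beside 24% of all tested genes.

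Rb1 (chromosome 14, 73192858 to 73325951), which codes for the Rb protein, had an implied RNA level of 8.08 and 8.52 FPKM in KO hearts, against 6.65 and 6.23 FPKM in WT hearts (log2 difference 0.37, SE 0.23, limma adjusted p = 0.321). The values did not overlap, but the difference was 0.15 after median-ratio scaling. Its footprint level was 39.4 and 80.3 FPKM in KO hearts, against 50.3 and 39.9 FPKM in WT hearts (log2 difference 0.32, SE 0.42, limma adjusted p = 0.719). KO replicate 2 was the high library and KO replicate 1 was below both WT libraries; the difference was -0.04 after median-ratio scaling and -0.18 without KO replicate 2. The TE of Rb1 was 4.88 and 9.42 in KO hearts, on both sides of 7.56 and 6.41 in WT hearts.

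**Figure D3:**
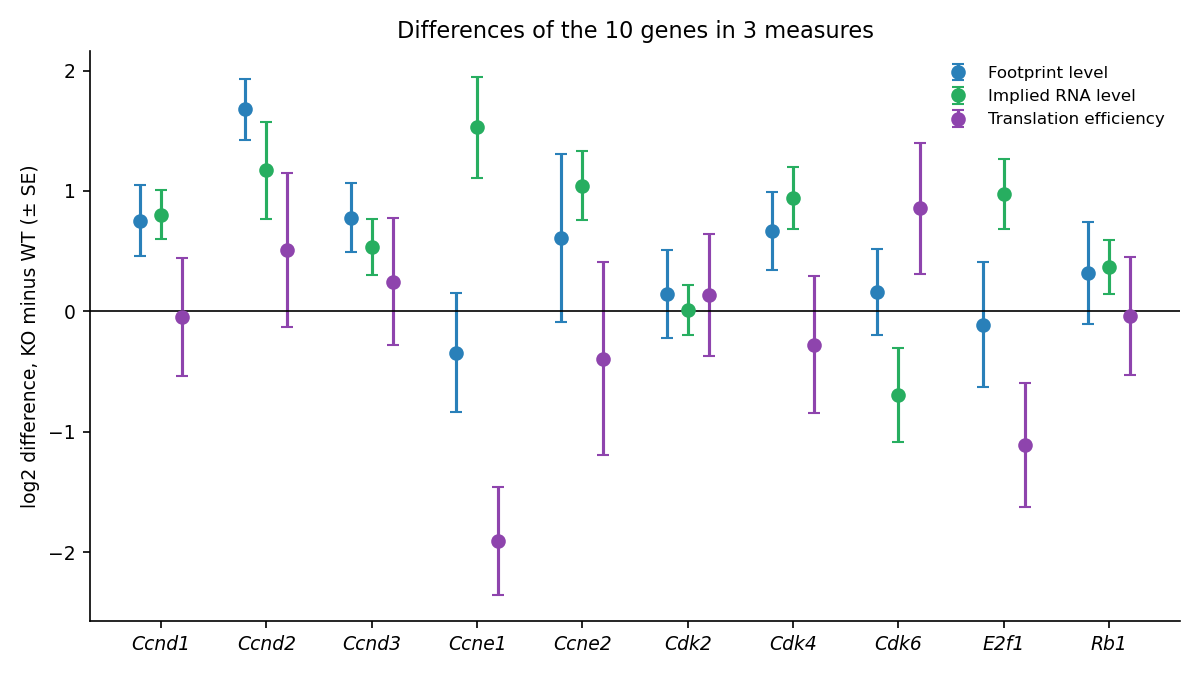
The log2 difference, KO minus WT, of the 10 genes in footprint level, implied RNA level and translation efficiency, with the standard error of the limma fit as bars (2 libraries each). Ccnd2 has the highest footprint difference (1.68), and Ccne1 has the highest RNA difference (1.53) with the lowest translation efficiency difference (-1.91).

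Both KO libraries lay above both WT libraries for 8 of the 10 genes in implied RNA (all but Cdk2 and Cdk6), beside 44.2% of all tested genes, and below them for 1 of 10 (Cdk6), beside 18.6%. For footprints they lay above for 4 of 10 (Ccnd1, Ccnd2, Ccnd3 and Cdk4), beside 39.5%, and below for 1 of 10 (Ccne1), beside 12.1%. The footprint share in the higher direction was thus close to that of all genes.

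The order of the genes by footprint level was nearly the same in both groups. In KO hearts it ran Ccnd2, Cdk4, Ccnd3, Ccnd1, Cdk2, Rb1, Cdk6, Ccne2, Ccne1 and E2f1, where only Cdk2 with Rb1 and Rb1 with Cdk6 had overlapping ranges among neighbours. In WT hearts Cdk6 and Rb1 changed places, and the ranges overlapped for neighbours from Cdk4 to Ccnd3 and from Ccnd1 down to Ccne1. The mean footprint level of Ccnd2 was at the 98.1 percentile of 12963 named genes in KO hearts and at the 94.2 percentile in WT hearts, and that of E2f1 at the 15.8 and 23.1 percentile. By implied RNA, Ccnd2 came first in KO hearts (78.1 ± 45.9 FPKM, SD, n = 2), with a range that overlapped that of Cdk4, and came after Ccnd3 and Cdk4 in WT hearts (31.6 ± 3.0 FPKM), where these neighbours overlapped too.

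The inhibitors of the G1 kinases were set beside them. Of 7 CDK inhibitors, 6 were tested for footprints, and 1 rose, Cdkn1a, which codes for p21. None fell. Over all tested genes 0.253% rose in footprints and 4.2% in implied RNA. Cdkn1a had 548 and 1245 FPKM of footprints in KO hearts, against 38.5 and 38.7 FPKM in WT hearts (log2 difference 4.39, SE 0.41, limma adjusted p = 0.022), and did not pass without the mean-variance trend. With any 1 library left out no tested gene passed in footprints, so that setting cannot decide for Cdkn1a. Its footprint level was 7.28 and 15.1 times that of Cdk2 in KO hearts, against 0.40 and 0.74 times in WT hearts. It was 1.64 and 3.83 times that of Cdk4 in KO hearts, against 0.14 and 0.25 times in WT hearts. In implied RNA, Cdkn1a was also the 1 inhibitor of 5 tested that rose (limma adjusted p = 0.012), at 37.2 and 26.9 times Cdk2 in KO hearts and 1.42 and 1.73 times in WT hearts. More inhibitors passed without KO replicate 2, a setting in which far more of all tested genes passed too.

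The other inhibitors did not pass. Cdkn1b, which codes for p27, had 74.1 and 81.6 FPKM of footprints in KO hearts, against 104.1 and 123 FPKM in WT hearts (limma adjusted p = 0.348). Cdkn1c, which codes for p57, had 12.1 and 38.4 FPKM in KO hearts, against 10.1 and 10.4 FPKM in WT hearts (limma adjusted p = 0.427). Cdkn2b, an inhibitor of Cdk4 and Cdk6, had 2.06 FPKM in KO replicate 1 and was listed at 0 in KO replicate 2, against 0.60 and 1.48 FPKM in WT hearts. The median log2 footprint difference over the 6 inhibitors was 0.13, beside 0.36 for all genes.

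Among the other pocket proteins, E2F factors and their DP partners, none of 10 tested rose or fell in footprints or in implied RNA by limma. At an unadjusted p under 0.05 by limma there were 0 and 5, beside 17.3% and 28.3% of all tested genes. Some passed in implied RNA without KO replicate 2, where far more of all tested genes passed too. The median log2 difference was -0.14 for footprints and 0.64 for implied RNA, beside 0.36 and 0.22 over all genes. At the low end of the footprint differences were E2f5 and E2f7 (-0.58 and -0.36) and at the high end E2f3 and E2f4 (1.03 and 0.66). E2f4, a repressor E2F of resting cells, had 28.1 and 41.8 FPKM of footprints in KO hearts, against 26.2 and 17.3 FPKM in WT hearts.

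Most of the listed genes known as E2F targets read higher in implied RNA in KO hearts. Of 16 tested G1/S genes, 6 rose in implied RNA, beside 4.2% of all tested genes, and none fell. The 6 were Mcm3 and Mcm5 of the replicative helicase, Rrm1 and Rrm2 of ribonucleotide reductase, Tk1 (thymidine kinase) and Tyms (thymidylate synthase). Tyms had 11.8 and 8.78 FPKM of implied RNA in KO hearts, against 1.78 and 2.44 FPKM in WT hearts, 4.89-fold higher (limma adjusted p = 0.023). Tk1 had 14.8 and 15.8 FPKM in KO hearts, against 5.30 and 5.46 FPKM in WT hearts, 2.84-fold higher (limma adjusted p = 0.027). Both KO libraries lay above both WT libraries for 15 of the 16, beside 44.2% of all tested genes. The count of 6 was 3 after median-ratio scaling and 0 without the mean-variance trend. It fell without WT replicate 1 and rose without KO replicate 2, where far more of all tested genes passed too.

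The same genes did not pass in footprints. None of the 16 was called and 0 had an unadjusted p under 0.05 by limma, with a median log2 difference of 0.78. Cdc6 and Cdc45, which load and start the helicase, had the highest differences (1.28 and 1.15), and Mcm2 and Rrm2 the lowest (-0.67 and 0.06). Rrm2 had 74.8 and 71.9 FPKM of footprints in KO hearts, against 139 and 35.3 FPKM in WT hearts. The sums over the list were 1068 and 928 FPKM in KO hearts and 998 and 429 FPKM in WT hearts. The WT libraries thus differed from each other by more than the group means did.

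Of the cyclins of the later phases and Cdk1, all 4 tested genes, Ccna2, Ccnb1, Ccnb2 and Cdk1, rose in implied RNA. Of all tested genes 4.2% rose. Ccnb2, a mitotic cyclin, had 9.53 and 11.6 FPKM in KO hearts, against 2.07 and 2.11 FPKM in WT hearts, 5.02-fold higher (limma adjusted p = 0.017). Cdk1, the mitotic kinase, had 22.7 and 29.7 FPKM in KO hearts, against 6.04 and 7.34 FPKM in WT hearts, 3.90-fold higher (limma adjusted p = 0.022). Ccna2, of S phase, and Ccnb1 were 3.69-fold and 3.40-fold higher (limma adjusted p = 0.024 and 0.031), and without the mean-variance trend 1 of the 4 passed. None passed in footprints, where the median log2 difference was 0.86 and Cdk1 had 152 and 115 FPKM in KO hearts, against 127 and 36.4 FPKM in WT hearts. For TE, the median log2 difference of these 4 genes was -1.05, beside 0.15 over all genes, and none passed. Of the markers of cycling cells, 4 of 5 (Birc5, Ccnb1, Cdk1 and Top2a) rose in implied RNA and none in footprints. Ccnb1 and Cdk1 stand in both lists, so the 2 counts are not separate.

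**Figure D4:**
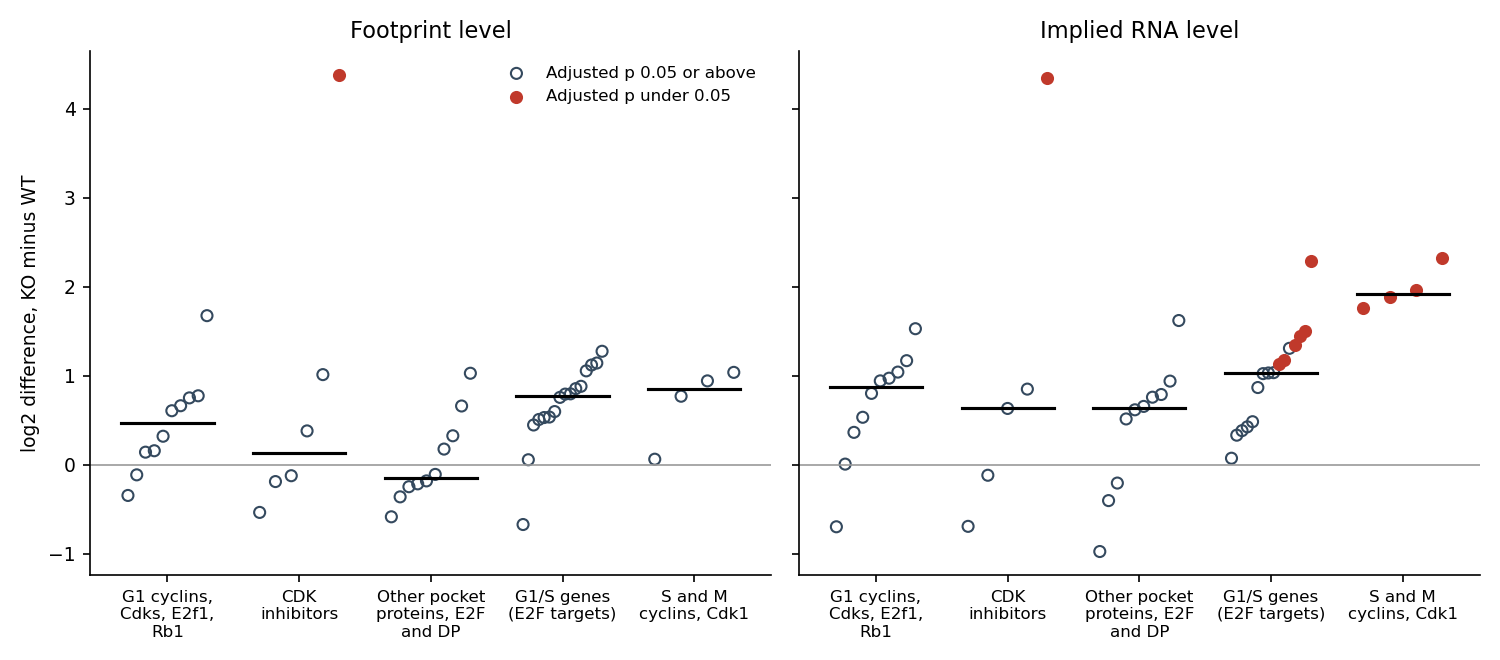
The log2 difference, KO minus WT, of each tested gene in 5 groups, for footprint level (left) and implied RNA level (right); red points have a limma adjusted p under 0.05, and black bars are medians. In footprints the 1 red point is Cdkn1a, while in implied RNA 6 of 16 E2F targets and 4 of 4 later cyclins and Cdk1 are red.

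Factors that activate or destroy the G1 machinery gave 1 higher and 1 lower call in implied RNA among 14 tested and none in footprints. Over all tested genes 4.2% rose and 1.53% fell in implied RNA. Skp2, which targets p27 for destruction, had 1.94 and 2.06 FPKM of implied RNA in KO hearts, against 0.65 and 0.63 FPKM in WT hearts, 3.11-fold higher (limma adjusted p = 0.049). Fbxo31, a ubiquitin ligase subunit, had 10.6 and 10.6 FPKM in KO hearts, against 24.1 and 27.7 FPKM in WT hearts (log2 difference -1.29, limma adjusted p = 0.031). After median-ratio scaling the list gave 1 call, lower in KO, and without the mean-variance trend 0. Fewer genes of the list passed without KO replicate 1, WT replicate 1 or WT replicate 2. More passed without KO replicate 2, where far more of all tested genes passed too. The footprint differences of this list ran from -0.90 for Fbxo31 and -0.43 for Ccnh, a subunit of the Cdk-activating kinase, to 0.60 for Mnat1 of the same kinase and 1.14 for Skp2.

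Of 20 cyclins and Cdks outside the G1 step, none passed in footprints, and 2 of 19 rose in implied RNA, beside 4.2% of all tested genes. Ccnf, a cyclin that acts in a ubiquitin ligase, had 1.86 and 3.37 FPKM of implied RNA in KO hearts, against 0.35 and 0.40 FPKM in WT hearts (limma adjusted p = 0.031). Ccng1, a p53 target, had 251 and 304 FPKM in KO hearts, against 142 and 113.5 FPKM in WT hearts (limma adjusted p = 0.046). The highest footprint differences of this list were those of Cdk14 (1.67) and Ccng2 (1.42), and the lowest those of Cdk8 (-1.14), listed at 0 in KO replicate 2, and Cdk16 (-0.34). Median-ratio scaling left 1 call in implied RNA, and there were 0 without the mean-variance trend. Fewer genes of the list passed without WT replicate 1 or WT replicate 2. More passed without KO replicate 2, where far more of all tested genes passed too.

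Among 13 growth signals and factors that can act on cyclin D, 1 rose in footprints, Ccn2, a matricellular growth factor and Yap target. It had 2402 and 5590.0 FPKM in KO hearts, against 253 and 251 FPKM in WT hearts (limma adjusted p = 0.037). Over all tested genes 0.253% rose in footprints and 4.2% in implied RNA. No gene of the list passed without the mean-variance trend, and 3 passed without small RNA genes and unnamed gene models. With any 1 library left out no tested gene passed in footprints, so that setting cannot decide for this list. Nrg1, the neuregulin ligand of Erbb receptors, had 59.3 and 99.3 FPKM of footprints in KO hearts, against 2.61 and 11.8 FPKM in WT hearts (limma adjusted p = 0.138), and rose in implied RNA (10.3-fold, limma adjusted p = 0.026). Ccn2 rose in implied RNA too (8.30-fold, limma adjusted p = 0.047). More than these 2 genes passed there without KO replicate 2 or without WT replicate 2, where more of all tested genes passed too. The receptors Erbb2 and Erbb4 had the lowest footprint differences (-0.32 and -0.20).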

How the data were processed

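The deposited FPKM values were made by the authors per gene and library, and the deposited TE is the authors' ratio of footprint to RNA level. The submitters' processing notes list Cufflinks 2.2.1, HTSeq 0.13.5, STAR 2.7.4a, Bowtie 1.3.1, FastQC 0.11.9 and cutadapt 3.7, and the build GRCm38 (mm10), with no order, settings or counted region. Low FPKM values showed no whole-read steps (at most 0.969% of genes shared a ratio), so no count test was run. Genes of at least 1 FPKM in at least 2 libraries were tested with limma 3.58.1 in R 4.3.3 (lmFit, eBayes with trend, two-sided, no covariates) on log2(FPKM + 1), which understates changes of low genes, and, where TE was above 0 in all 4 libraries, on log2(TE) and log2(FPKM / TE). Benjamini-Hochberg adjustment ran over all genes tested. The fit was tested on simulated data. Members, lists, markers and tests were chosen with earlier results of these data known. Within the lists, called genes and the 2 highest and 2 lowest footprint differences were named. Gene positions and promoter sequences come from RefSeq, GRCm38.p6. In footprints, same-numbered KO and WT libraries did not deviate together (r = -0.056 over 15031 genes), so the numbers were not taken as pairs. TE and implied RNA were not checked in this way.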

Additional observations from a re-analysis of the deposited data

How the results depend on the processing

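Of 120, 89 and 109 member values under other settings in footprints, TE and implied RNA, 109, 80 and 98 kept their direction and their side of the threshold. Part of this was fixed in advance. The replicate block, the mean-variance trend and the choice of genes tested leave a member's difference unchanged, so its direction could not turn. With 1 library left out no tested gene passed in footprints, so no member could pass there. The tally is therefore no measure of stability. Calls over all genes numbered 57 in footprints, 0 in TE (759 at an unadjusted p under 0.05 by limma) and 718 in implied RNA. With a replicate block they were 143, 178 and 1429, and without the mean-variance trend 36, 1 and 67. Without small RNA genes and unnamed models they were 223 in footprints and 1 in TE. In footprints a pseudocount of 0.1 gave 34 and no filter 8. In TE a minimum RNA level of 1 FPKM gave 1. With 1 library left out they were 0 in footprints, 0 to 33 in TE and 704 to 3742 in implied RNA. Members called were 0 in each measure. With the replicate block 1 was called in footprints and 1 in implied RNA, Ccnd2 in both (limma adjusted p = 0.033 for each), and without small RNA genes 1 in footprints. With 1 library left out 0 to 5 were called in implied RNA. No other member's call changed with the block. The settings tried on the pathway lists were chosen after seeing the data.

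Directions turned as follows, in log2. With 1 library left out, footprint differences ran from -0.32 to 0.10 for E2f1, from -0.29 to 0.58 for Cdk2, from -0.41 to 1.63 for Ccne2, from -0.19 to 0.51 for Cdk6 and from -0.18 to 0.83 for Rb1. TE differences ran from -0.96 to 0.41 for Cdk4, from -0.51 to 0.44 for Rb1, from -1.62 to 0.84 for Ccne2, from -0.36 to 0.63 for Cdk2, from -0.26 to 0.75 for Ccnd3, from -0.32 to 1.34 for Ccnd2 and from -0.47 to 0.38 for Ccnd1. The implied RNA difference of Cdk2 ran from -0.042 to 0.061. After median-ratio scaling, footprint differences were -0.044 for Rb1, -0.22 for Cdk2 and -0.21 for Cdk6, and Cdk2 read -0.054 in TE and -0.21 in implied RNA. In implied RNA, the Ccne1 share of the E-type sum differed by 6.23 percentage points and that of Ccne2 by -6.23, opposite to footprints. The cause was not tested. Depth is unknown, so its part in the spread of low values such as those of E2f1 and Ccne1 was not tested.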
